A study of Rattus norvegicus with 12 samples.

Results

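The microRNA clusters miR-106a-363 and miR-106b-25 are paralogs: short stretches of genome that each hold several microRNA genes, derived from a common ancestor that also gave rise to miR-17-92. The genes were chosen by name from the deposited table of rat liver microRNAs, with no cut on their values but with earlier results of these data known. All 8 that were looked for were found among the 444 features: Mir106a, Mir20b, Mir19b2, Mir92a2 and Mir363 of miR-106a-363, and Mir106b, Mir93 and Mir25 of miR-106b-25. Mir18b was not analysed here.

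Male Jcl:SD rats, an outbred Sprague-Dawley stock, were dosed by mouth for 5 days from 7 weeks of age, and liver was taken 1 h after the last dose. The groups were CAF (caffeine at 120 mg/kg), DEX (dextromethorphan hydrobromide monohydrate at 100 mg/kg), CAF+DEX (both at those doses) and Control (the vehicle, sterile distilled water). Caffeine blocks adenosine receptors, and dextromethorphan is a cough suppressant that blocks NMDA receptors. Each group had 5 rats and 3 libraries are analysed here, 12 in all. The labels tie no library to a rat, so p-values measure the spread between these libraries.

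A microRNA guides Argonaute proteins to messenger RNAs that pair with its seed, bases 2 to 8 from the 5′ end, and lowers their output. Members of one seed family can therefore reach overlapping targets. The seed of miR-17, miR-20, miR-93 and miR-106 is known for repressing the cell cycle inhibitor p21, and that of miR-25 and miR-92 for repressing the death-promoting protein Bim. In liver these clusters are known mainly from tumours and from growing tissue, where they are often raised. The mature arms that carry the 3 seeds are given here because they show which members can be told apart by sequencing. They are the RefSeq sequences (table of build GRCr8), found for 8 of 8 genes, with the seed in capitals.

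Mir106a, chromosome X, rno-miR-17-5p: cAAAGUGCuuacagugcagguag
Mir20b, chromosome X, rno-miR-20b-5p: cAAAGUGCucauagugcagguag
Mir106b, chromosome 12, rno-miR-106b-5p: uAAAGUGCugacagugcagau
Mir93, chromosome 12, rno-miR-93-5p: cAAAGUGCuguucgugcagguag
Mir19b2, chromosome X, rno-miR-19b-3p: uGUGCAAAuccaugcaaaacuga
Mir92a2, chromosome X, rno-miR-92a-3p: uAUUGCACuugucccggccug
Mir363, chromosome X, rno-miR-363-3p: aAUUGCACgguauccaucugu
Mir25, chromosome 12, rno-miR-25-3p: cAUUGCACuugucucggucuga

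The clusters share 2 of the 3 seeds, and the seed of miR-19 is carried by Mir19b2 of miR-106a-363 but by no gene of miR-106b-25. Outside the seed the arms differ. Mir20b differs from Mir93 at 3 of 23 bases and from Mir106b at 4 of 21, counted position by position from the 5′ end. Mir363 differs from Mir25 at 13 of 21 bases, whereas Mir92a2 differs from Mir25 at 3 of 21.

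In the deposited table (build rn7) miR-106a-363 lay on the minus strand of chromosome X within 871 bases. In the order of transcription it held Mir106a (ENSRNOG00000035592, 132422584 to 132422661), Mir20b (ENSRNOG00000036558, 132422211 to 132422282), Mir19b2 (ENSRNOG00000035579, 132422072 to 132422167), Mir92a2 (ENSRNOG00000035549, 132421942 to 132422033) and Mir363 (ENSRNOG00000036273, 132421791 to 132421877). The miR-106b-25 cluster lay on the minus strand of chromosome 12 within 494 bases. It held Mir106b (ENSRNOG00000035540, 17043344 to 17043425), Mir93 (ENSRNOG00000035485, 17043135 to 17043221) and Mir25 (ENSRNOG00000035531, 17042932 to 17043015). RefSeq (GRCr8) places all 3 of these inside the span of Mcm7, a gene for a subunit of the replicative helicase. Exon and intron positions were not analysed here.

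The first question was how abundant each gene was. Levels are FPKM, the authors' reads scaled to the length of the annotated gene and to the total on the listed features, and all 8 genes were above 0 in all 12 libraries. Mir19b2 averaged 80057 ± 6895 FPKM, Mir25 71549 ± 4326 FPKM and Mir93 65895 ± 5703 FPKM (SD, n = 12). The other 5 genes were far lower: Mir106a averaged 974 ± 154 FPKM, Mir106b 491 ± 44.5 FPKM, Mir20b 282 ± 84.1 FPKM, Mir92a2 143 ± 17.9 FPKM and Mir363 37.8 ± 17.4 FPKM.

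That order held with gaps of unequal width. The lowest library for Mir93 was 56950 FPKM and the highest for Mir106a 1178 FPKM, so nothing lay between the 3 abundant genes and the others. Among the abundant genes the ranges overlapped, with Mir19b2 above Mir25 in 10 of 12 libraries and Mir25 above Mir93 in 11 of 12. Ranges also overlapped between Mir106b and Mir20b and between Mir20b and Mir92a2, although the first of each pair was higher in 12 of 12 libraries. Mir363 was lowest in 12 of 12.

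**Figure D1:**
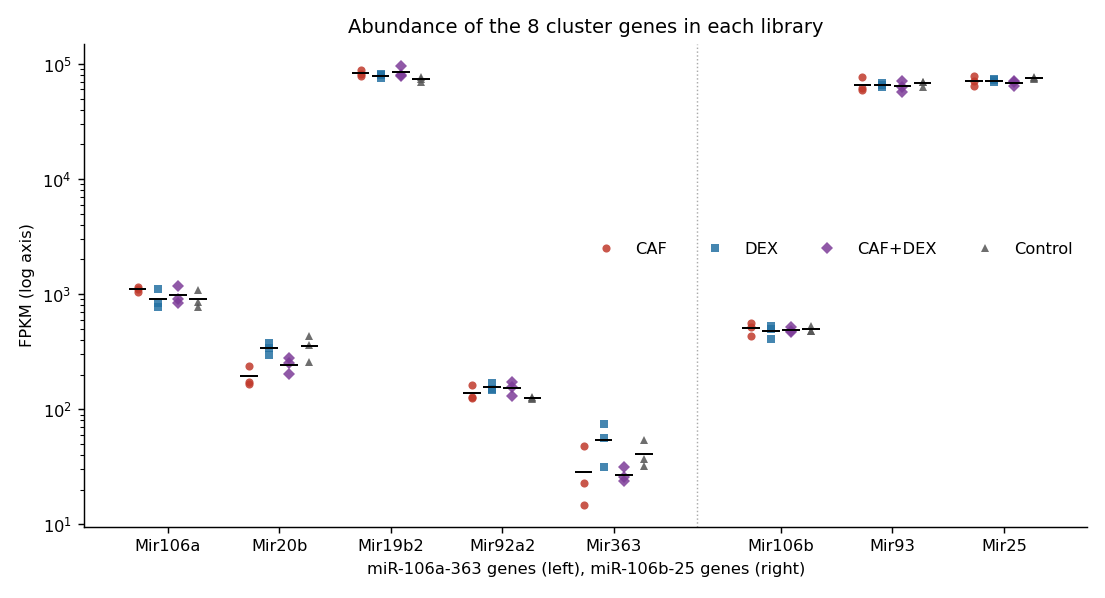
Deposited FPKM of the 8 genes in each of the 12 libraries on a log axis, with miR-106a-363 on the left of the dotted line and miR-106b-25 on the right; symbols show the CAF, DEX, CAF+DEX and Control groups and short bars the group means (n = 3). Mir19b2, Mir93 and Mir25 all lie above 56950 FPKM, and the other 5 genes lie at or below 1178 FPKM.

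Genes of one cluster, which are usually cut from one primary transcript, therefore differed widely in FPKM. This is a value per gene and does not separate a gene's mature arms. In miR-106b-25, Mir25 stood 137 to 171 times above Mir106b per library and Mir93 119 to 157 times. Together Mir93 and Mir25 made up 99.6 to 99.7% of the FPKM summed over the 3 genes. In miR-106a-363, Mir19b2 made up 97.7 to 98.5% of the summed FPKM.

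The read numbers behind these levels set their precision. Reads were recovered from the FPKM by the library totals, which ran from 2863572 to 3418568 reads. Mir19b2 had on average 24339 reads, Mir25 19024 and Mir93 18147. Mir106a had 189 to 309 reads per library, Mir106b 110 to 149, Mir20b 36 to 107, Mir92a2 34 to 53 and Mir363 4 to 22. For Mir363 the 4 reads of CAF library 2 (14.8 FPKM) carry an exact Poisson 95% interval of 4.03 to 37.9 FPKM, and the 22 reads of DEX library 4 (75.2 FPKM) one of 47.1 to 114 FPKM. Such intervals cover counting error alone, since reads need not be independent molecules. Counting alone would give Mir363 a coefficient of variation of 25.5 to 36.9% within the groups, and 15.3 to 60.7% was observed.

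Next, the reads shared with copies elsewhere were examined, because 3 of the 5 genes of miR-106a-363 make a mature arm that a gene of miR-17-92 on chromosome 15 makes as well. Mir106a shares its arm with Mir17, Mir19b2 with Mir19b1 and Mir92a2 with Mir92a1, base for base. Mir20b, Mir363, Mir106b, Mir93 and Mir25 share no annotated arm with another gene of the RefSeq table. Only the bases beside a shared arm, or reads from the other arm of the hairpin, can place a read in one gene or the other. The arms are printed here in lower case with the 4 bases on each side of them in capitals, from the RefSeq hairpins.

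Mir106a, chromosome X: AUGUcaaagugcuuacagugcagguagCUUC
Mir17, chromosome 15: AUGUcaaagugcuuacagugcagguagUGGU
Mir19b2, chromosome X: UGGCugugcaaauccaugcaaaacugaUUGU
Mir19b1, chromosome 15: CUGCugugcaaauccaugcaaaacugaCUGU
Mir92a2, chromosome X: AAAGuauugcacuugucccggccugAGGA
Mir92a1, chromosome 15: AUAGuauugcacuugucccggccugUUGA

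In each pair the hairpins part at the first base 3′ of the arm. With the shared bases on the 5′ side, the runs that cannot be assigned are 27, 25 and 23 bases long for the pairs of Mir106a, Mir19b2 and Mir92a2. The sources used here do not say how the authors assigned reads that fit several genes. The recovered values were multiples of 0.01 read, and whole in 50.5 to 58.3% of the features detected in a library.

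The 3 pairs showed 3 different divisions. Mir19b2 and Mir19b1 had nearly equal reads, with a ratio of 1.016 to 1.020 in the 12 libraries and 369.5 to 547.5 more reads on Mir19b2. Mir106a had 58.5 to 73.2% as many reads as Mir17. Mir92a2 had 1.39 to 1.93% as many reads as Mir92a1. The level of Mir19b2, which is nearly all of the signal of miR-106a-363, thus cannot be told apart from that of Mir19b1 in miR-17-92. Of the 5 genes whose annotated arms are shared with no other gene, Mir20b and Mir363 had whole reads (within 0.005 read) in 12 of 12 libraries, Mir25 in 10, and Mir106b and Mir93 in 7 each. Of the 3 with a shared arm, Mir92a2 had whole reads in 9 of 12 libraries, Mir106a in 5 and Mir19b2 in 0. Fractions of reads on Mir25, Mir106b and Mir93 thus remained, and the features they were divided with were not looked for.

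**Figure D2:**
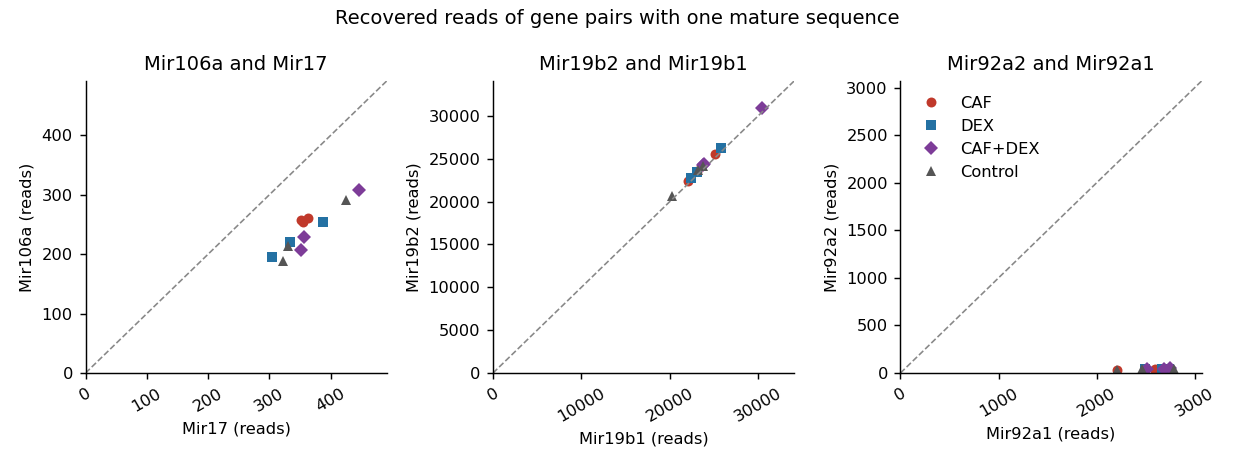
Recovered reads per library of Mir106a, Mir19b2 and Mir92a2 (vertical axes) against the gene with the same mature arm, Mir17, Mir19b1 and Mir92a1 (horizontal axes), with symbols for CAF, DEX, CAF+DEX and Control and a dashed line of equal reads. The libraries follow the line for Mir19b2 (ratio 1.016 to 1.020), lie below it for Mir106a (58.5 to 73.2%) and lie near 0 for Mir92a2 (1.39 to 1.93%).

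The seed families show where each cluster weighed most in gene FPKM. These shares do not separate the arm with the seed from the other arm of a gene. Of the FPKM summed over the 6 genes with the seed AAAGUGC, Mir93 and Mir106b held 77.3 to 82.8%, Mir17 and Mir20a of miR-17-92 15.8 to 21.3%, and Mir106a and Mir20b 1.33 to 1.76%. Of the 6 genes with AUUGCAC, Mir25 held 83.4 to 87.1%, Mir92a1 10.8 to 14.3%, Mir32 and Mir92b together 1.79 to 2.24%, and Mir92a2 and Mir363 0.182 to 0.275%. Of the 3 genes with GUGCAAA, Mir19b2 held 42.4 to 43.2%, and Mir19b1 and Mir19a held the rest. The split between Mir19b2 and Mir19b1 depends on how reads of the shared arm were assigned. The miR-106b-25 genes thus led both families in which they have members in all 12 libraries, and the miR-106a-363 genes without a shared arm were minor in both.

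The treatment groups were then compared with limma (limma-trend on log2 FPKM with a pseudocount of 3.80 FPKM) over all 293 features above 0 in at least 3 libraries, which included all 8 genes. With this pseudocount a change in a rare gene is understated. The comparisons with Control share its 3 libraries. No gene of either cluster passed a Benjamini-Hochberg adjusted p of 0.05 in any comparison. For CAF against Control 0 of 8 did, beside 0.683% of all features (2 of 293). For DEX against Control and CAF+DEX against Control it was 0 of 8, beside 0% of all features each. The caffeine main effect, the mean of CAF against Control and CAF+DEX against DEX, gave 0 of 8 beside 0.683%. The dextromethorphan main effect and the interaction gave 0 of 8 beside 0%, and the test for any difference between the 4 groups 0 of 8 beside 0.341%. With limma-voom on the recovered reads the count was also 0 of 8 in each.

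At an unadjusted limma p under 0.05, the genes were Mir20b and Mir19b2 for CAF (13% of all features), Mir20b, Mir19b2 and Mir25 for CAF+DEX (10.2%), none for DEX (4.44%), and Mir20b, Mir363 and Mir19b2 for the caffeine main effect (14.3%). For the dextromethorphan main effect and the interaction there was none, beside 7.51% and 5.46% of all features. For any difference between the 4 groups it was Mir20b (11.3%).

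Mir20b, a member of the miR-17 seed family with an arm of its own, had the smallest limma p of the 8 for CAF against Control, for the caffeine main effect and for any difference between the groups. It had 238, 174 and 166 FPKM in CAF livers, 297, 378 and 343 FPKM in DEX livers and 203, 278 and 252 FPKM in CAF+DEX livers, against 364, 435 and 255 FPKM in Control livers. The 3 CAF libraries lay below all Control and all DEX libraries, while 1 Control library (255 FPKM) fell inside the CAF+DEX range. The exact Poisson 95% intervals overlapped for CAF library 1 (49 reads, 175.8 to 314.2 FPKM) and Control library 4 (57 reads, 193.2 to 330.5 FPKM). How many of all features had groups as fully apart was not counted, for Mir20b or for the genes below. The means were 193 ± 39.0 FPKM in CAF, 339 ± 40.2 FPKM in DEX and 244 ± 37.9 FPKM in CAF+DEX, against 351 ± 90.4 FPKM in Control (SD, n = 3 each).

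For CAF against Control the log2 difference of Mir20b was −0.84 (SE 0.22, 95% interval −1.32 to −0.35), with an adjusted limma p of 0.109. For CAF+DEX against Control it was −0.50 (SE 0.22, adjusted limma p 0.480), and for DEX against Control −0.02 (SE 0.22, adjusted limma p 1). Over the 6 libraries with caffeine the level was 219 ± 44.5 FPKM, against 345 ± 62.9 FPKM over the 6 without. The caffeine main effect was −0.65 (SE 0.16, 95% interval −0.997 to −0.31), a ratio of 0.635, with an adjusted limma p of 0.0526, which misses the threshold of 0.05. The interaction was 0.36 (SE 0.32, adjusted limma p 0.991), so a difference between the caffeine effect with and without dextromethorphan was not detectable.

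Whether Mir20b was called depended on single libraries and on the filter and scaling. Without CAF library 1 its adjusted limma p was 0.0453 for CAF against Control and 0.0211 for the caffeine main effect, and without Control library 4 it was 0.0386 and 0.0287. More features in all were called there than the 2 of each main fit: 10 and 10 without CAF library 1, and 5 and 3 without Control library 4. For the caffeine main effect the adjusted limma p of Mir20b was 0.0354 with a filter at a mean of 10 reads and 0.0413 with median-of-ratios scaling. These 2 settings called 10 and 11 features in all. The log2 difference for CAF against Control ran from −1.05 to −0.67 over the 12 fits that leave out 1 library.

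Mir363, the last gene of miR-106a-363, had 48.2, 14.8 and 23.0 FPKM in CAF livers, 31.3, 56.8 and 75.2 FPKM in DEX livers and 25.6, 31.8 and 23.9 FPKM in CAF+DEX livers, against 32.3, 53.8 and 37.0 FPKM in Control livers. The 3 CAF+DEX libraries lay below the 3 Control libraries by a narrow margin (31.8 against 32.3 FPKM), and the CAF and DEX ranges overlapped the Control range. Its caffeine main effect was −0.71 on the log2 scale (SE 0.29, adjusted limma p 0.253), on 4 to 22 reads per library. It ran from −0.91 without CAF library 1 to −0.28 with the header number as replicate block, and was −0.37 with the pseudocount 10 times larger.

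Mir19b2 lay on the other side of 0. It had 81634, 78873 and 88589 FPKM in CAF livers, 80542, 75452 and 81300 FPKM in DEX livers and 80308, 78035 and 95968 FPKM in CAF+DEX livers, against 76996, 73734 and 69258 FPKM in Control livers. All CAF and all CAF+DEX libraries were above the Control libraries, and 1 DEX library fell within the Control range. The log2 differences were small, 0.18 for CAF (SE 0.08, adjusted limma p 0.361), 0.20 for CAF+DEX (SE 0.08, adjusted limma p 0.395) and 0.11 for DEX (SE 0.08, adjusted limma p 0.841). With the FPKM of Mir19b1 added they were 0.18, 0.20 and 0.11, and Mir19b1 alone gave 0.18 for CAF and 0.20 for CAF+DEX.

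Mir106a and Mir92a2 share arms with Mir17 and Mir92a1. Mir106a averaged 1104 ± 52.2 FPKM in CAF, 909 ± 178 FPKM in DEX and 975 ± 179 FPKM in CAF+DEX, against 909 ± 162 FPKM in Control. Mir92a2 averaged 139 ± 19.4 FPKM in CAF, 155 ± 11.5 FPKM in DEX and 153 ± 20.3 FPKM in CAF+DEX, against 126 ± 1.57 FPKM in Control (SD, n = 3 each). The Mir106a ranges of CAF, DEX and CAF+DEX all overlapped that of Control, and the largest of its log2 differences, 0.29 for CAF (SE 0.17), had an adjusted limma p of 0.505. All DEX and CAF+DEX libraries of Mir92a2 were above its Control libraries, with log2 differences of 0.29 for DEX (SE 0.18, adjusted limma p 0.841) and 0.27 for CAF+DEX (SE 0.18, adjusted limma p 0.843). The Control libraries of Mir92a2 lay closer together than counting error alone would put them, 1.25% against 16.3%, on 37.5 reads on average.

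**Figure D3:**
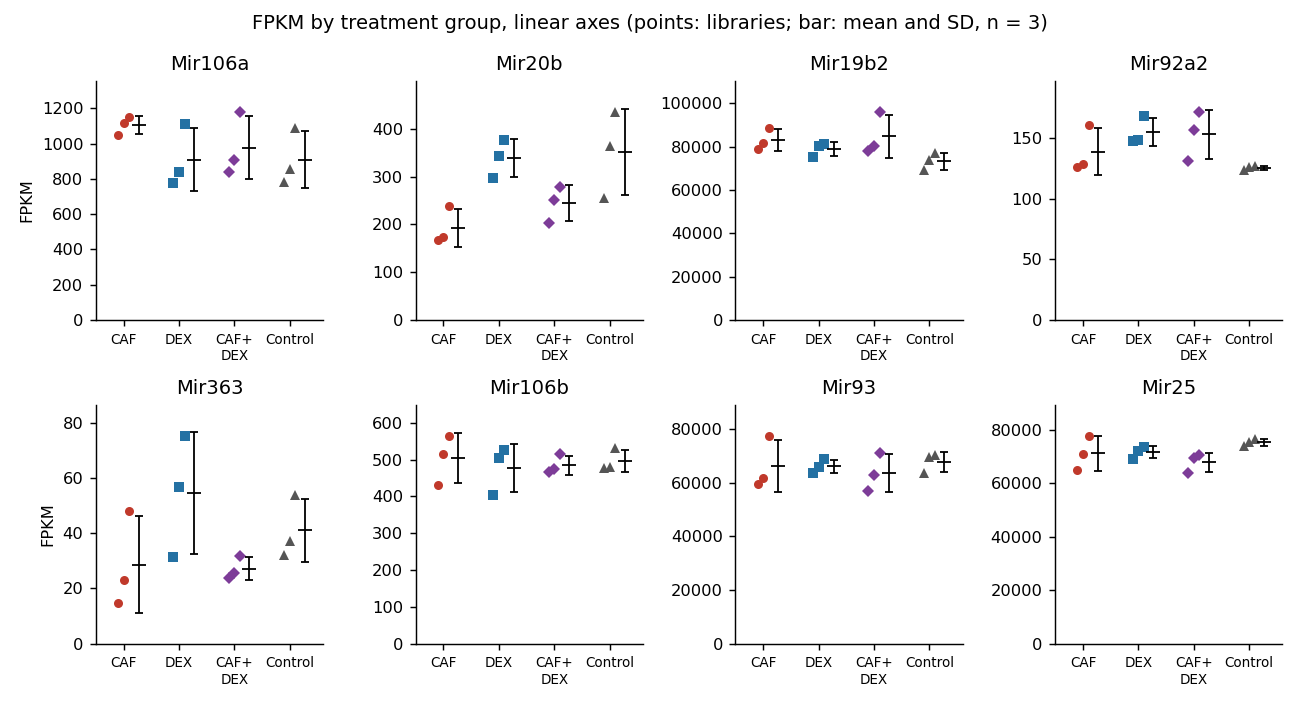
FPKM of each of the 8 genes in the CAF, DEX, CAF+DEX and Control libraries on linear axes from 0; bars show the mean and SD (n = 3). Mir20b is lower in the 3 CAF libraries (166 to 238 FPKM) than in the 3 Control libraries (255 to 435 FPKM), while the groups of the other genes lie close together or overlap.

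The log2 differences of the miR-106b-25 genes from Control lay between −0.15 and 0.014. Mir25 had 77771, 64862 and 71116 FPKM in CAF livers, 73795, 71987 and 69274 FPKM in DEX livers and 63821, 70517 and 69433 FPKM in CAF+DEX livers, against 75437, 76598 and 73983 FPKM in Control livers. The CAF+DEX and DEX libraries were all below the lowest Control library, and the CAF libraries lay on both sides of the Control range. The log2 difference was −0.15 for CAF+DEX (SE 0.07, 95% interval −0.30 to −0.0046, adjusted limma p 0.480), −0.08 for CAF and −0.07 for DEX.

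Mir93 averaged 66161 ± 9760 FPKM in CAF, 66013 ± 2540 FPKM in DEX and 63664 ± 7114 FPKM in CAF+DEX, against 67740 ± 3721 FPKM in Control. Mir106b averaged 504 ± 67.1 FPKM in CAF, 478 ± 64.9 FPKM in DEX and 485 ± 25.6 FPKM in CAF+DEX, against 497 ± 30.2 FPKM in Control. For these 2 genes every 95% interval of the log2 difference from Control lay between −0.38 and 0.33. Each of these intervals spans 0, so differences inside them were not excluded with 3 libraries a group.

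**Figure D4:**
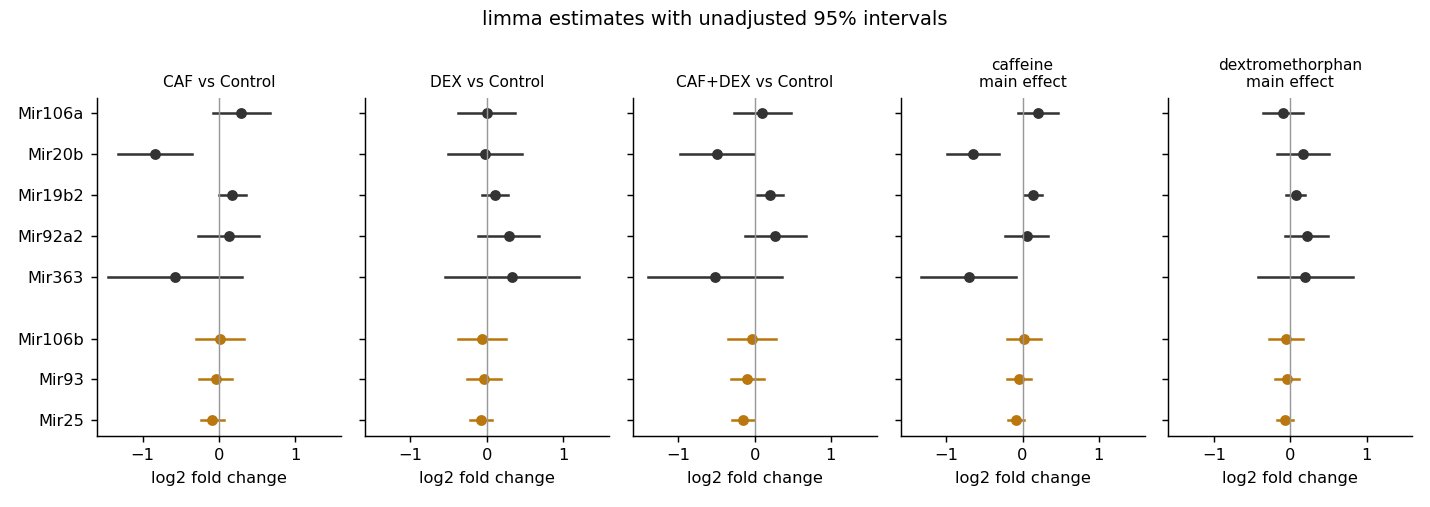
Log2 differences (points) with unadjusted 95% intervals (lines) from limma for the 8 genes in CAF, DEX and CAF+DEX against Control and for the main effects of caffeine and dextromethorphan; miR-106a-363 is in black above, miR-106b-25 in orange below. Mir20b lies left of 0 for CAF (−0.84) and for the caffeine main effect (−0.65), and the 3 genes of miR-106b-25 lie between −0.15 and 0.02 in these 5 panels.

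Taken as lists, the clusters had median differences near 0 and no gene past the threshold. For CAF against Control 3 of the 5 genes of miR-106a-363 had a positive log2 difference (median 0.13) and 1 of the 3 of miR-106b-25 (median −0.04), against a median of 0.0023 over all 293 features. For CAF+DEX the medians were 0.10 and −0.09, against −0.0089 over all features. For DEX they were 0.11 and −0.06, against 0.0039. The related cluster miR-17-92 had 6 of 6 genes with a positive difference for CAF (median 0.15), 5 of 6 for DEX (0.11) and 5 of 6 for CAF+DEX (0.10), and 0 of 6 passed the test in each. These positive differences include Mir17, Mir19b1 and Mir92a1, the copies of genes in miR-106a-363.

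The balance between the clusters was described by the log2 ratio of summed FPKM, miR-106b-25 over miR-106a-363. It was 0.70 ± 0.18 in CAF, 0.78 ± 0.08 in DEX and 0.62 ± 0.12 in CAF+DEX, against 0.94 ± 0.04 in Control (SD, n = 3 each). The 3 Control libraries (0.89 to 0.97) overlapped the CAF range (0.56 to 0.90) and lay above the DEX and CAF+DEX ranges (0.69 to 0.85 and 0.53 to 0.75). This ratio is in effect that of Mir93 and Mir25 to Mir19b2. With Mir20b and Mir363 alone standing for miR-106a-363, it was 9.30 ± 0.19 in CAF, 8.47 ± 0.26 in DEX and 8.93 ± 0.16 in CAF+DEX, against 8.55 ± 0.32 in Control. Here CAF was the highest group, so the groups' order depends on which genes of miR-106a-363 are counted.

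The values of a cluster's genes were not all correlated over the 12 libraries. Pairs were tested by shuffling all 12 libraries without regard to group, so these p-values do not separate differences between groups from those within them. Of the 28 pairs of genes, 1 passed a permutation test adjusted over the 28: Mir93 and Mir25 (Pearson r 0.813, adjusted permutation p 0.0445, and Spearman rho 0.699, adjusted permutation p 0.105, two-sided). Without the 2 libraries farthest from the median of Mir93 the r was 0.637, and on deviations from the group means it was 0.855. Mir20b and Mir363 had an r of 0.755 (adjusted permutation p 0.0703) and a rho of 0.762 (adjusted permutation p 0.0791), and an r of 0.626 on deviations from the group means. The 3 pairs within miR-106b-25 had r from 0.569 to 0.813. The 10 pairs within miR-106a-363 had r from −0.416 to 0.755 with a median of −0.0908, against a median of 0.128 for the 15 pairs between the clusters. Mir20b and Mir19b2, neighbours on the X chromosome, had the lowest of them (r −0.416, adjusted permutation p 0.425), but an r of −0.157 without the 2 libraries farthest from the median of Mir20b and of 0.0825 on deviations from the group means. On such deviations the median was 0.197 within miR-106a-363, 0.830 within miR-106b-25 and 0.409 between the clusters. Within miR-106a-363, Mir363 had 4 to 22 reads per library and Mir92a2 34 to 53. Mir106a, Mir19b2 and Mir92a2 share arms with miR-17-92. How far counting error and shared reads set these r values was not tested.

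For each gene the 2 most alike of the 292 other tested features were found by Pearson r of log2 values over the 12 libraries. These are the highest of many values and carry no p. The copies came first for Mir19b2 (Mir19b1, r 1.00, then Mir19a, 0.857) and for Mir106a (Mir17, 0.918, then Mir28, 0.790), but not for Mir92a2 (Mirlet7d, 0.803, then Mir20a, 0.733). The r of Mir92a2 with Mir20a was 0.463 without the 2 libraries farthest from the median of Mir92a2. Mir363 was most like Mir449a (0.885) and Mir103a1 (0.804). Mir106b was most like Mir490 (0.763) and Mir345 (0.694, but 0.012 without the 2 libraries farthest from its median). Mir93 was most like Mir33 (0.876, but 0.119 within the 6 libraries without caffeine) and Mir128-1 (0.840), and Mir25 like Mir8 (0.894) and Mir7-1 (0.893). The features all share the depth and scaling of the same libraries.

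Mir20b was most like Mir142 (r 0.931, rho 0.944) and Mir146a (r 0.905, rho 0.930), microRNAs of blood and immune cells. They were also the 2 features called for CAF against Control. Mir142 averaged 81647 FPKM in CAF, 116761 FPKM in DEX and 94348 FPKM in CAF+DEX, against 122740 FPKM in Control. Its log2 difference for CAF was −0.60 (adjusted limma p 0.0293). On deviations from the group means the r of Mir20b was 0.761 with Mir142 and 0.710 with Mir146a. Within the 6 libraries with caffeine it was 0.972 and 0.959, and within the 6 without 0.564 and 0.452.

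**Figure D5:**
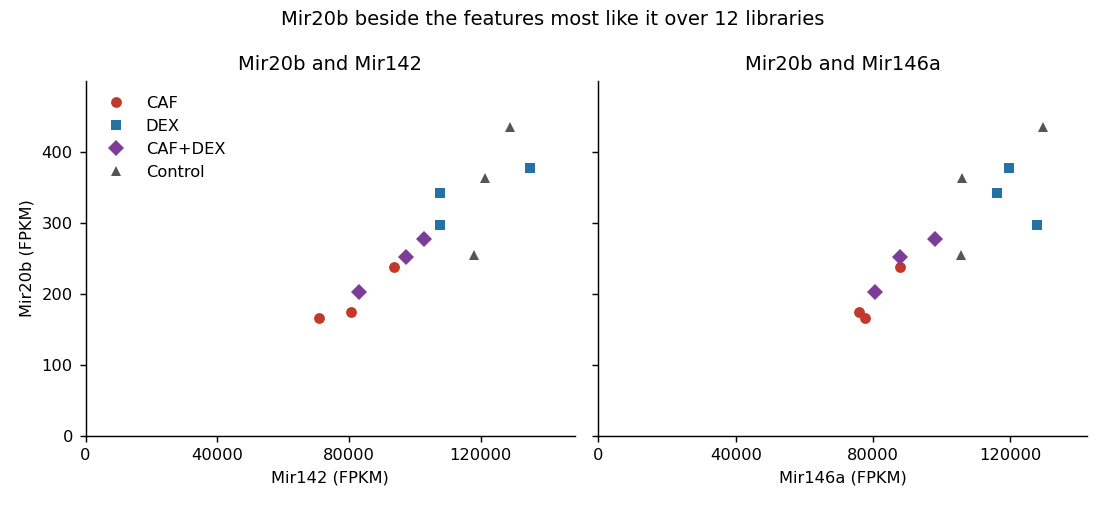
FPKM of Mir20b (vertical axes) against Mir142 and Mir146a (horizontal axes) in the 12 libraries, with symbols for CAF, DEX, CAF+DEX and Control. The 6 libraries with caffeine lie at the lower left with Mir20b at 166 to 278 FPKM, and the 6 without at the upper right with Mir20b at 255 to 435 FPKM.

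The leukocyte marker list holds Mir142, Mir146a, Mir150, Mir155, Mir223 and Mir342, all 6 above 0 in all libraries. For CAF against Control 2 of the 6 passed the test, Mir142 and Mir146a, beside 0.683% of all features (2 of 293). The list was chosen with earlier results of these data known. The log2 differences of the other 4 ran from −0.61 (Mir155) to −0.28 (Mir223). Mir142 and Mir146a made up 85.6 to 89.8% of the list's summed FPKM, so the sum mainly gives their level. Not all members followed caffeine where dextromethorphan was given: Mir155 averaged 834 FPKM in CAF+DEX and 833 FPKM in DEX, and Mir223 averaged 15031 FPKM in CAF+DEX and 15141 FPKM in DEX. The list's summed level was 170746 to 209357 FPKM in CAF, 252967 to 288492 FPKM in DEX and 191008 to 234448 FPKM in CAF+DEX, against 256370 to 291122 FPKM in Control. The 3 erythroid markers summed to 7502 to 14237 FPKM in CAF, 11313 to 15213 FPKM in DEX and 10589 to 11747 FPKM in CAF+DEX, against 12584 to 15141 FPKM in Control. Their part in the values of Mir20b was not tested. In bulk liver, fewer cells of a type and less RNA per cell cannot be told apart. The hepatocyte markers, which fit the labelled tissue, were above 0 in all libraries (6 of 6). Their sums overlapped those of Control in CAF and CAF+DEX, and were 2336990 to 2416350 FPKM in DEX, against 2430200 to 2580270 FPKM in Control. Mir192 held the largest part of the sum, on average 1315940 FPKM in DEX and 1423300 FPKM in Control. Mir192, Mir194-2 and Mir148a averaged lower in DEX than in Control, and Mir194-1, Mir802 and Mir22 higher. The stellate and smooth muscle markers (3 of 3 above 0), the biliary markers (3 of 3) and the endothelial Mir126a overlapped Control in every group.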

How the data were processed

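Per the labels' protocols, the microRNA libraries came from a QIAseq kit with unique molecular indices, and the sources used here do not say whether these were collapsed. The submitters' processing notes name cutadapt 3.7, STAR 2.7.11b, featureCounts of Subread 2.0.6 and build rn7. The authors deposited FPKM with each feature's length. FPKM times length in kilobases summed to 1000000 per library, so the authors' scaling covers the 444 features of the table. The smallest totals found that made all values multiples of 0.01 read, within 1.7e-09, were 2863572 to 3418568 reads. Precision is limited by 3 libraries a group and, for rare genes, by counting.

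The column headers name a group and a library number (CAF 1, 2 and 5; DEX 1, 2 and 4; CAF+DEX 1, 2 and 5; Control 1, 3 and 4), used here as names. Features above 0 in at least 3 of 12 libraries (293) were fitted together by limma-trend (limma 3.58.1 in R 4.3.3) as log2(FPKM + 3.80), a pseudocount at the 10th percentile of nonzero values, with Benjamini-Hochberg adjustment over the 293 and a threshold of 0.05. The limma fit was tested on simulated reads with known differences between CAF and Control, and the other steps were not tested in this way. Permutation tests used 100000 resamples (numpy 2.4.6, scipy 1.17.1). Alternatives were other pseudocounts, filters, scalings and models, copies summed and each library left out. Named were all 8 genes, miR-17-92, features with a shared seed, and the 2 features most like each gene; Mir142 and Mir146a are also markers. The members and lists were chosen with earlier results of these data known.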

Additional observations from a re-analysis of the deposited data

How the results depend on the processing

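Over the 48 log2 differences of the 8 genes (6 contrasts each), 24 other settings gave 1128 values, of which 50 changed sign and 6, all of Mir20b, passed the threshold; 30 of the 48 changed sign under none. The cause of each change below was not tested. For Mir20b, the caffeine main effect was called with a filter at a mean of 10 reads (adjusted limma p 0.0354) and with median-of-ratios scaling (0.0413). So 1 of the 8 genes passed there, beside 10 and 11 of all features. Leaving out 1 library gave 0 to 1 gene for CAF, beside 0 to 10 of all features, and 0 to 1 for the caffeine main effect, beside 1 to 10. The adjusted limma p of Mir20b over all settings ran from 0.0386 to 0.505 for CAF and from 0.0211 to 0.391 for the caffeine main effect.

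The header numbers gave no sign of pairing. Of 11 pairs with the same number, 1 had a correlation of deviations over 0.1 (median −0.0233). Of 43 pairs with different numbers, 10 did (median −0.00396). With 3 libraries a group these values cannot exclude a pairing. With the header number as replicate block the features called were 0 for CAF, 1 for DEX, 0 for the caffeine main effect and 0 for any difference, and these log2 differences changed sign: for CAF Mir92a2 −0.0093, Mir363 0.024 and Mir106b −0.018; for DEX Mir106a 0.16 and Mir20b 0.096; for CAF+DEX Mir363 0.080; for the caffeine main effect Mir92a2 −0.072 and Mir106b −0.028; for the interaction Mir106b −0.020 and Mir25 −0.010. With quantile normalization Mir106a (0.074), Mir20b (0.053) and Mir106b (0.038) changed sign for DEX and Mir106b (−0.14) for the interaction.

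The number of all features called moved more. For CAF it was 0 with no filter, without the trend or with the 2 groups alone, 4 with quantile normalization, and 0 to 10 with 1 library left out. For DEX it was 0 to 1 with 1 library left out. For CAF+DEX it was 2 with the pseudocount 10 times larger, 2 with the stricter filter and 1 with quantile normalization. For the caffeine main effect it was 5 with the larger pseudocount, 10 with the stricter filter, 5 with quantile normalization, 11 with median-of-ratios scaling, 4 with limma-voom, 0 without the trend and 1 to 10 with 1 library left out. The interaction had 0 to 1 with 1 library left out. Any difference had 0 with no filter, 0 without the trend and 0 to 4 with 1 library left out.

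Leaving out 1 library gave these ranges of log2 differences that crossed 0. For CAF, Mir106b ran from −0.072 to 0.12 and Mir93 from −0.16 to 0.029. For DEX, Mir106a ran from −0.16 to 0.14, Mir20b from −0.23 to 0.15 and Mir106b from −0.14 to 0.052. For CAF+DEX, Mir106a ran from −0.043 to 0.24 and Mir106b from −0.076 to 0.015. For the caffeine main effect, Mir92a2 ran from −0.00030 to 0.11 and Mir106b from −0.036 to 0.074. For the dextromethorphan main effect, Mir106b ran from −0.11 to 0.0024 and Mir93 from −0.085 to 0.015. For the interaction, Mir363 ran from −0.61 to 0.13, Mir106b from −0.10 to 0.10, Mir93 from −0.098 to 0.10 and Mir25 from −0.060 to 0.071.

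The cluster ratio without Mir19b2 and Mir92a2 was 6.70 in CAF, 6.73 in DEX and 6.74 in CAF+DEX, against 6.80 in Control. With Mir20b and Mir363 alone, a setting added after the data were seen, it was 9.30 in CAF, 8.47 in DEX and 8.93 in CAF+DEX, against 8.55 in Control. On recovered reads it was 0.54 in CAF, 0.62 in DEX and 0.46 in CAF+DEX, against 0.78 in Control. For Mir25 over Mir19b2 it was −0.22 in CAF, −0.14 in DEX and −0.31 in CAF+DEX, against 0.040 in Control. Depth limits the values of Mir363, Mir92a2 and Mir20b most.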
